A study of Homo sapiens with 4 samples.

Results

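The genes described are 10 heat shock chaperones and co-chaperones measured by RNA sequencing in HaCaT, a long-established human keratinocyte cell line. They are the small heat shock proteins HSPB1 and HSPB8, the constitutive HSP70 chaperone HSPA8, the cytosolic HSP90 proteins HSP90AA1 and HSP90AB1, the co-chaperones DNAJB1, HSPH1 and BAG3, and the chaperonins HSPD1 and HSPE1. Each was taken by its gene symbol, and all 10 were found among the 55536 genes of the deposited table. They were chosen by gene family with the counts of the TYMP and NC libraries, and the difference in HSPB1, already known, so those values are given as a description, without a test. HSPD1 and HSPE1 are usually placed in the mitochondrial matrix, so the set is not purely cytosolic.

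There were 2 libraries from HaCaT cells carrying a stable lentivirus for TYMP overexpression (TYMP) and 2 from cells labelled NC, all harvested after 48 hours. TYMP encodes thymidine phosphorylase. The labels neither spell out NC nor describe the vector or its promoter, and they do not state from how many cultures each group's libraries came, so the p-values rest on a spread that may be only technical. The total count was 16209663 and 16729277 in the TYMP libraries and 17000821 and 16619063 in the NC libraries. TYMP itself had 1221 and 1100 reads in the TYMP libraries, against 281 and 264 in the NC libraries.

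All 10 keratinocyte markers had reads, with summed levels of 11878 and 11394 CPM (counts scaled to library size) in the TYMP libraries and 9306 and 8604 CPM in the NC libraries. Marker lists of fibroblasts, melanocytes, immune cells and endothelial cells summed to between 2.87 and 17.0 CPM in the TYMP libraries and between 2.59 and 26.8 CPM in the NC libraries. Among the genes of these lists, COL3A1 and TYR had 0 reads in every library. Mitochondrially encoded genes took 5.09% and 4.46% of the counts in the TYMP libraries, against 4.25% and 4.24% in the NC libraries. For 8 of the 10 keratinocyte markers both TYMP libraries were above both NC libraries, against 21.8% of all genes tested for a difference, and SFN and JUP overlapped. Among the 8 were the keratins of differentiating layers: KRT1 had 980 and 933 reads in the TYMP libraries, against 196 and 186 in the NC libraries, and KRT10 had 1522 and 1434 in the TYMP libraries, against 1097 and 926 in the NC libraries. Keratins of the basal layer were also among the 8. KRT5 had 61922 and 59632 reads in the TYMP libraries, against 44836 and 39686 in the NC libraries. KRT14 had 52254 and 54019 reads in the TYMP libraries, against 44675 and 39051 in the NC libraries. Most of the keratinocyte markers thus differed between the groups. The mitochondrial share was higher in both TYMP libraries. These libraries differed more from each other in that share than TYMP replicate 2 did from the NC libraries. The part of the markers and of this share in the values below was not tested.

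Chaperones bind unfolded or partly folded proteins and keep them from aggregating. HSP70 and HSP90 do so in cycles driven by ATP, J-domain proteins hand clients to HSP70, and exchange factors release them. Small heat shock proteins hold clients without ATP. After heat or other protein damage, heat shock factor 1 binds repeats of the bases GAA, called heat shock elements, in the promoters of many of these genes. In human epidermis HSPB1 is known for its presence in the upper, differentiating layers. In bulk RNA a change in the make-up of the culture and a change in RNA per cell cannot be told apart.

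Heat shock elements were searched in RefSeq promoter windows of GRCh38.p14, which run from 250 bases before to 50 bases after an annotated start. All 10 symbols matched, with 16 windows. The short motifs were GAANNTTC and TTCNNGAA, of 8 letters, and the extended motifs were GAANNTTCNNGAA and TTCNNGAANNTTC, of 13 letters. Both strands were covered because each short motif reads the same on either strand and the extended motifs are each other's reverse complement. An extended match contains overlapping short matches. An extended match was present in a window of 4 of the 10 genes, HSPA8, HSP90AA1, HSP90AB1 and HSPD1, against 0.608% of all 27305 genes with a window. By window it was 4 of the 16, against 0.490% of all 35116 windows. A short match was present in 8 of the 16 windows, and in 13.5% of all windows. The HSPB1 window held 1 short match, which began 182 bases before the start, and no extended one. A match is a description of the letters and not evidence of binding, and the windows without one can have elements elsewhere. The stretches of 120 bases below, 5′ to 3′ on the strand of each gene, set the HSPB1 match beside those of other members, with the short matches in capitals. Their GRCh38.p14 positions are chr7:76302435-76302554 on the plus strand for HSPB1, chr11:123062137-123062256 on the minus strand for HSPA8, and chr14:102087059-102087178 on the minus strand for HSP90AA1. Those of HSP90AB1 and DNAJB1 are chr6:44247751-44247870 on the plus strand and chr19:14518398-14518517 on the minus strand.
HSPB1: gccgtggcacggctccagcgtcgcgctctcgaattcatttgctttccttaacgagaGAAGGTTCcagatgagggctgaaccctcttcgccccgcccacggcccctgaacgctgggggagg
HSPA8: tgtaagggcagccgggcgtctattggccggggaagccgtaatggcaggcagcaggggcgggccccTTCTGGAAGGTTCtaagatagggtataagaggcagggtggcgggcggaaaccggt
HSP90AA1: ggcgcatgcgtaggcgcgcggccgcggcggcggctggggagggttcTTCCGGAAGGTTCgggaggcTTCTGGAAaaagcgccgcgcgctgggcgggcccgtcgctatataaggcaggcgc
HSP90AB1: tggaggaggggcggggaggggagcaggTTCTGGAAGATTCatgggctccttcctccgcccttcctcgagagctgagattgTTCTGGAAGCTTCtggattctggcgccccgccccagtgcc
DNAJB1: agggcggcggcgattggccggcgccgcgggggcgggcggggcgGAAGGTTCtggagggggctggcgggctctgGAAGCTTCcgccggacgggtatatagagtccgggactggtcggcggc

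HSPB1 had more reads in both TYMP libraries than in both NC libraries, and no other member differed as much. HSPB1 encodes a small heat shock protein (Hsp27) that also binds actin and intermediate filaments. It lies on the plus strand of chromosome 7 between 76302544 and 76304295 on GRCh38, where GENCODE 29 places no exon of another gene over its exons. It had 6564 and 6004 reads in the TYMP libraries, against 3844 and 3575 in the NC libraries. Scaled by TMM, this was 381 ± 38.0 CPM in the TYMP libraries and 222 ± 9.11 CPM in the NC libraries (SD, n = 2 each). The groups did not overlap, and the gap between them was wider than that between the libraries of either group. The ratio of means was 1.71-fold, a log2 fold change of 0.78 ± 0.088 (SE).

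The other small heat shock protein of the set, HSPB8, was close to the limit of measurement. HSPB8 works with BAG3 to route damaged proteins to autophagy. It had 70 and 69 reads in the TYMP libraries, against 44 and 71 in the NC libraries. The groups overlapped, and after scaling 1 NC library fell between the TYMP libraries. Its log2 fold change was 0.28 ± 0.28 (SE), and it was -0.026 without NC replicate 1. Per gene length, HSPB1 had 207 and 192 times the level of HSPB8 in the TYMP libraries, against 193 and 111 times in the NC libraries. Of the further 7 small heat shock genes looked for, 0 had enough reads to be tested, each with between 0 and 6 reads in all 4 libraries together, and CRYAB, the alpha-B crystallin gene, had 1 and 4 reads in the TYMP libraries and 0 and 0 in the NC libraries. Within this family, HSPB1 was therefore the member with nearly all reads.

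**Figure D1:**
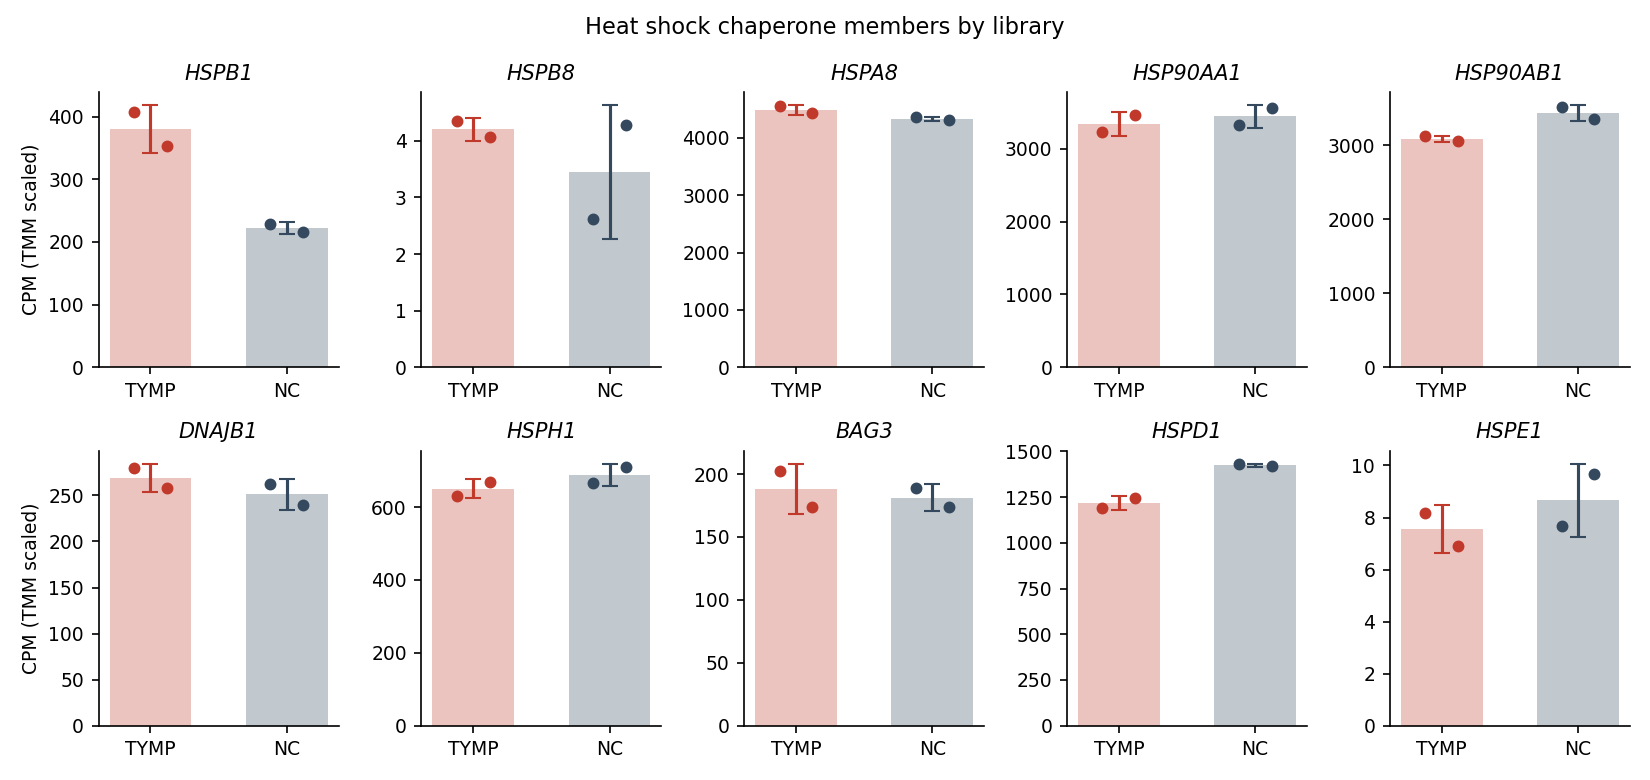
CPM (counts scaled to library size by TMM) of the 10 members, 1 panel per gene with an axis from 0, for the TYMP and NC libraries. Points are libraries, bars are means and error bars are SD (n = 2 each). The HSPB1 points of the TYMP group lie well above those of the NC group, and those of HSP90AB1 and HSPD1 lie below.

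The 3 most abundant members, HSPA8, HSP90AA1 and HSP90AB1, took 80.0% and 80.2% of the members' reads in the TYMP libraries and 80.1% and 80.2% in the NC libraries. HSPA8 folds new proteins and uncoats clathrin vesicles. It had 73281 and 75230 reads in the TYMP libraries, against 73226 and 71403 in the NC libraries. After scaling, both TYMP libraries lay above both NC libraries, but by little, at 4490 ± 83.0 CPM in the TYMP libraries and 4334 ± 32.5 CPM in the NC libraries (SD, n = 2 each), a log2 fold change of 0.051 ± 0.069 (SE).

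Neither HSP90 gene was higher on average in the TYMP libraries. HSP90AA1, the more stress-inducible HSP90, had 51994 and 58833 reads in the TYMP libraries, against 56070 and 58917 in the NC libraries. Its groups overlapped, its log2 fold change was -0.043 ± 0.074 (SE), and the sign turned without TYMP replicate 1 (0.014). HSP90AB1, the constitutive form, had 50245 and 51861 reads in the TYMP libraries, against 59009 and 55644 in the NC libraries. Both TYMP libraries were below both NC libraries, at 3087 ± 45.3 CPM in the TYMP libraries and 3436 ± 107 CPM in the NC libraries (SD, n = 2 each; log2 fold change -0.15 ± 0.071 SE). Per gene length the HSP90AB1 level was 1.65 and 1.51 times that of HSP90AA1 in the TYMP libraries, against 1.80 and 1.62 times in the NC libraries.

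The co-chaperones of HSP70 overlapped between the groups. DNAJB1, a J-domain protein that delivers clients to HSP70, had 4511 and 4377 reads in the TYMP libraries, against 4414 and 3966 in the NC libraries (log2 fold change 0.099 ± 0.085 SE). HSPH1, an HSP110 exchange factor of HSP70, had 10172 and 11358 reads in the TYMP libraries, against 11206 and 11763 in the NC libraries (log2 fold change -0.083 ± 0.077 SE). BAG3, the exchange factor that binds HSPB8, had 3262 and 2956 reads in the TYMP libraries, against 3173 and 2876 in the NC libraries (log2 fold change 0.055 ± 0.093 SE). For each of these 3 genes the TYMP and NC libraries were interleaved after scaling. The sign of BAG3 turned without TYMP replicate 1 or without NC replicate 2, to -0.051 at the lowest.

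The mitochondrial chaperonin HSPD1 (Hsp60) was lower in both TYMP libraries. Its gene spans 197486581 to 197516737 of chromosome 2 in GRCh38, minus strand. HSPD1 had 19191 and 21159 reads in the TYMP libraries, against 24040 and 23491 in the NC libraries, or 1219 ± 39.0 CPM in the TYMP libraries and 1424 ± 8.56 CPM in the NC libraries (SD, n = 2 each). The groups did not overlap, and the log2 fold change was -0.23 ± 0.072 (SE). The 4 members with an extended match thus had log2 fold changes between -0.23 and 0.051. HSPE1 (Hsp10), which caps the HSPD1 ring and is read from the plus strand within that span, 197499994 to 197503457, had 132 and 117 reads in the TYMP libraries, against 129 and 160 in the NC libraries. Its groups overlapped (log2 fold change -0.20 ± 0.20 SE). Per gene length HSPD1 was 34.7 and 43.2 times HSPE1 in the TYMP libraries, against 44.5 and 35.1 times in the NC libraries, although their proteins work as a complex. Of the HSPE1 exon bases in GENCODE 29, 23.9% are shared with HSPD1 on the other strand or with the read-through gene HSPE1-MOB4 on its own strand. HSPE1-MOB4 had 0 reads in every library. The sources used here do not tell how the authors treated reads that match more than 1 gene, or whether strand was used, so the level of HSPE1 is uncertain.

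**Figure D2:**
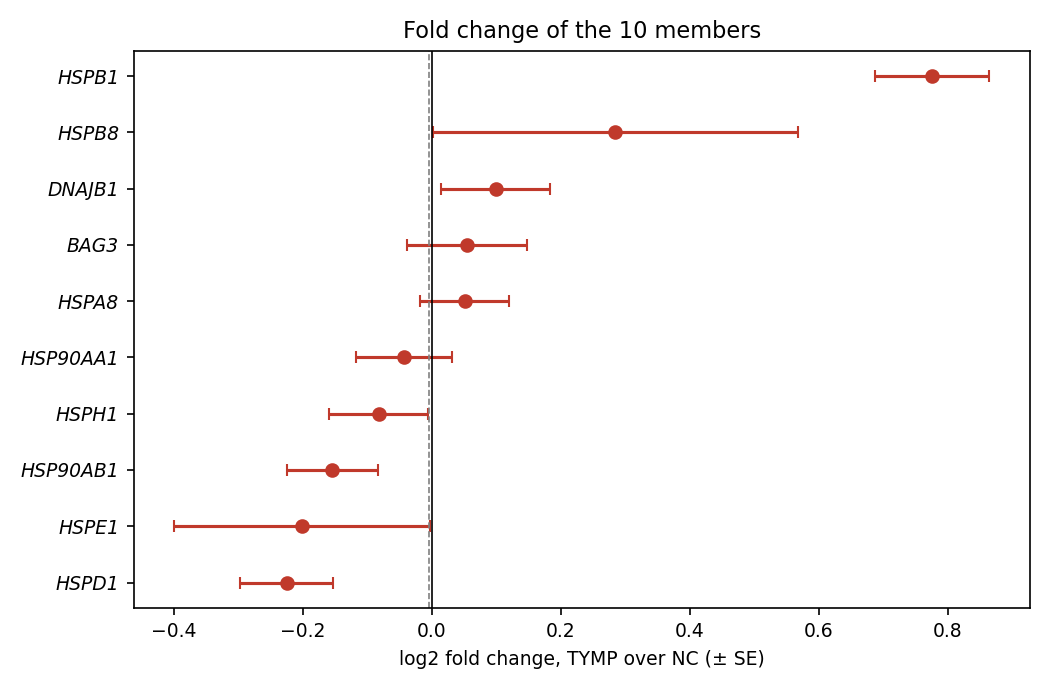
Log2 fold change of each member, TYMP over NC, with its standard error from the edgeR fit, in order of size. The dashed line is the median of all tested genes (-0.0051). HSPB1 stands at 0.78, while the other 9 lie between -0.23 and 0.28.

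Across the 10 members the median log2 fold change was 0.0040, against -0.0051 over all 14380 genes tested with edgeR. HSPB1 was the only member among the genes called at an adjusted p under 0.05, while 3.32% of all tested genes were called. Nothing is read from that share, because the members were chosen with this comparison known. Both TYMP libraries were above both NC libraries for HSPB1 and HSPA8 and below them for HSP90AB1 and HSPD1, and 6 members overlapped. Over all tested genes 21.8% were above and 21.8% below. Together the 10 genes took 1.35% and 1.39% of all counts in the TYMP libraries, against 1.38% and 1.40% in the NC libraries. Within that sum, HSPB1 took 2.99% and 2.59% of the members' reads in the TYMP libraries, against 1.63% and 1.54% in the NC libraries.

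Levels per gene length, taken from the deposited FPKM, which divide a count by gene length and library total, ranged widely. HSP90AB1, HSPA8 and HSP90AA1 ranked 11, 16 and 23 of the 14380 tested genes by mean FPKM over the 4 libraries. HSPB1 ranked 121 and HSPD1 135, and these were the only neighbours in the order whose ranges over the 4 libraries overlapped. HSPB1 was above HSPD1 in the TYMP libraries, at 235 ± 20.1 against 160 ± 7.50 FPKM, and below it in the NC libraries, at 136 ± 4.79 against 185 ± 0.0512 FPKM (SD, n = 2 each). HSPH1, BAG3 and DNAJB1 followed at ranks 382, 491 and 1314. HSPE1, at rank 6983, and HSPB8, at rank 10672, came last. The gene length in the authors' FPKM was 8188 bases for DNAJB1 and 7629 for HSPD1, against 3672 and 4245 exon bases in GENCODE 29, so their place in the order depends on the annotation. At a length of 4245 bases HSPD1 would lie above HSPB1 in every library. The crossing of HSPB1 and HSPD1 between the groups therefore rests on the authors' gene length.

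**Figure D3:**
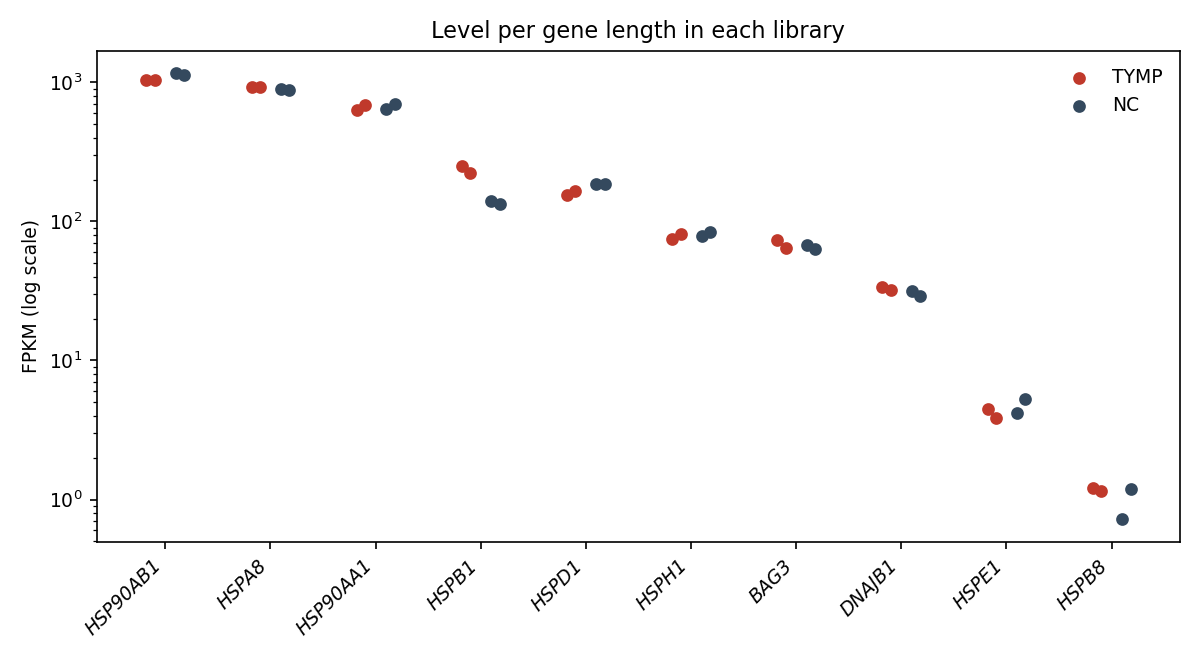
FPKM of each member in every library on a log axis, ordered by the mean over the 4 libraries, with 2 TYMP points left of 2 NC points for each gene. At the gene lengths used in the authors' FPKM, HSPB1 exceeds HSPD1 in the TYMP libraries and lies below it in the NC libraries.

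Reads of pseudogenes were few beside most members. Processed copies of HSPB1, in 2 rows of the table, had 1 and 3 reads in the TYMP libraries and 2 and 0 in the NC libraries. Those of HSPD1 summed to between 0.552% and 0.624% of the HSPD1 count in the TYMP libraries and between 0.532% and 0.626% in the NC libraries. For HSPE1 the same share was 8.33% and 10.3% in the TYMP libraries, against 16.3% and 11.3% in the NC libraries. Of the 50-base windows of the members' GENCODE 29 transcripts, those also present in another gene made up 5.84% for HSPB1, 8.23% for HSPA8, 11.3% for HSP90AA1, 16.6% for HSP90AB1, 13.2% for HSPD1, 11.7% for HSPE1 and 2.02% for DNAJB1. HSPB8, HSPH1 and BAG3 had 0 such windows. Exons of other genes on either strand covered 3.61% of the HSPA8 exon bases, 3.75% of HSP90AA1, 6.21% of DNAJB1 and 6.62% of HSPD1. By exact 50-base matches, HSPB1 thus shared only a small part of its transcript sequence with another gene. Matches with differing bases were not searched.

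The other genes of the chaperone network were taken from 9 lists of 101 genes, of which 82 had enough reads to be tested. Of these, 0 passed the edgeR threshold, against 3.32% of all genes tested, and 0 did with DESeq2 or limma-voom. At an unadjusted p under 0.05 there were 18, against 14.7% of all genes tested. Fits that dropped 1 library leave 1 library in a group, so nothing is read from the number they called. Their median log2 fold change was -0.086, and 59 of the 82 were below 0, against 50.9% of all tested genes. Both TYMP libraries were below both NC libraries for 33 of the 82 genes, against 21.8% of all tested genes, and above them for 11, against 21.8%. A p that misses the threshold does not show that these genes were alike in the groups.

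Of the cytosolic HSP70 and HSP110 genes, 5 of 10 were tested and 0 were called, with a median log2 fold change of 0.17 and 2 genes below 0. Both TYMP libraries were above both NC libraries for 3 of these genes and below them for 2, against 21.8% each way over all tested genes. HSPA2, an HSP70 chaperone best known from the testis, had 671 and 571 reads in the TYMP libraries, against 473 and 421 in the NC libraries, or 37.6 ± 5.67 CPM in the TYMP libraries and 26.8 ± 1.93 CPM in the NC libraries (SD, n = 2 each). The groups did not overlap, and the log2 fold change of 0.49 ± 0.13 (SE) missed the threshold (edgeR adjusted p = 0.0688). It passed with library totals as the only scaling (adjusted p = 0.0412), with no filter (0.00782), without TYMP replicate 2 (0.0162) and without NC replicate 1 (0.0112), in a range of 0.00782 to 0.550 over the 12 alternatives without a replicate block. A row for an antisense gene, HSPA2-AS1, is also in the table.

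The main stress-inducible HSP70 genes could not be followed. HSPA1A had 6 and 2 reads in the TYMP libraries and 3 and 3 in the NC libraries, and HSPA1B had 8 and 8 in the TYMP libraries and 3 and 6 in the NC libraries. Their neighbour HSPA1L had 0 reads in every library. All 3 lie on chromosome 6 between 28 and 34 Mb, and GENCODE 29 also names them on sequences outside the primary assembly. Of the 5 network genes in that interval, 1 was tested. HSF1, which encodes heat shock factor 1, had 0 and 0 reads in the TYMP libraries and 0 and 1 in the NC libraries, and it too is named outside the primary assembly. In all, 5 of the 19 untested network genes are so named. HSPA6, an HSP70 gene on chromosome 1 that is not so named, had 6 and 6 reads in the TYMP libraries and 7 and 2 in the NC libraries. CCT8, a subunit of the TRiC chaperonin that cells use constantly, had 0 and 1 reads in the TYMP libraries and 0 and 0 in the NC libraries. These counts do not show that such genes were not expressed, and the heat shock response of these cells was therefore measured without its main inducible HSP70 genes and without HSF1.

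The chaperonin TRiC, which folds actin and tubulin, and prefoldin, which delivers clients to it, had 11 of 14 genes tested, 0 called and a median log2 fold change of -0.19, against -0.0051 over all tested genes. All 11 tested genes had a negative log2 fold change, between -0.34 and -0.076, and for 10 of them both TYMP libraries were below both NC libraries, against 21.8% of all tested genes. CCT7, a TRiC subunit, had the smallest p, with 6140 and 6425 reads in the TYMP libraries, against 8077 and 6939 in the NC libraries (log2 fold change -0.24 ± 0.084 SE, edgeR adjusted p = 0.175). Of the same 12 alternatives it passed in the fit without NC replicate 2 (adjusted p = 0.0228), in a range up to 0.576. Among the mitochondrial chaperones and proteases, 11 of 11 were tested and 0 called, with a median of -0.13. GRPEL1, the exchange factor of the mitochondrial HSP70, had 1053 and 1170 reads in the TYMP libraries, against 1437 and 1286 in the NC libraries (log2 fold change -0.28 ± 0.098 SE, edgeR adjusted p = 0.177). The medians of both lists were thus below 0, as was HSPD1, while with group alone in the model and all 4 libraries no single gene of them passed.

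**Figure D4:**
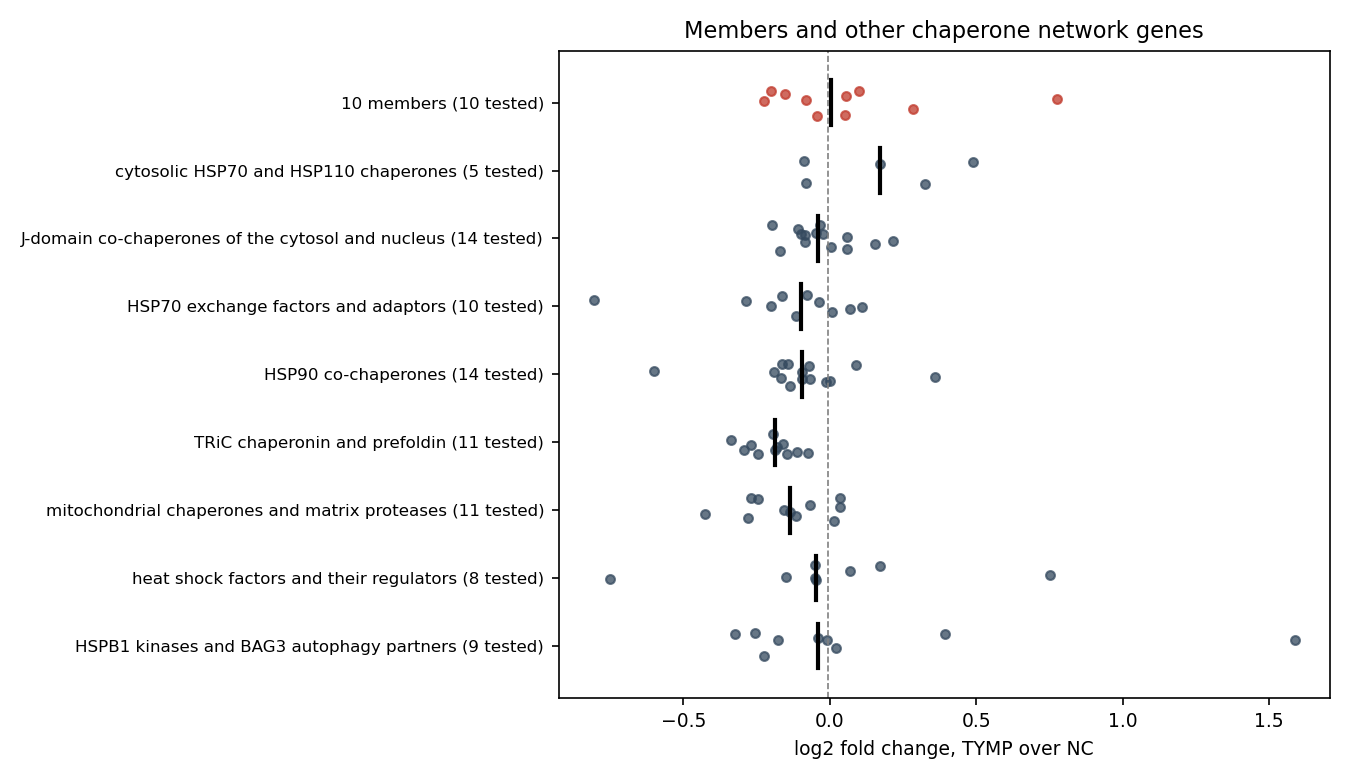
Log2 fold change, TYMP over NC, of each tested gene in the 10 members and in 8 lists of other chaperone network genes. Points are genes with vertical jitter, black bars are list medians, and the dashed line is the median of all tested genes. All TRiC and prefoldin points lie left of 0, with a median of -0.19.

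The medians of the remaining lists lay between -0.097 and -0.040. Over all tested genes, 3.32% were called and 50.9% had a log2 fold change below 0. With so few genes per list, nothing is read from the 0 calls. Of 14 J-domain co-chaperones, all were tested and 0 called, with a median log2 fold change of -0.041, 9 genes below 0 and DNAJC9, a histone-binding J-domain protein, lowest in p (edgeR adjusted p = 0.471). Of 10 exchange factors and adaptors of HSP70, all were tested and 0 called, with a median of -0.097, 7 genes below 0 and BAG2 lowest in p (edgeR adjusted p = 0.322). Of 15 HSP90 co-chaperones, 14 were tested and 0 called, with a median of -0.094, 11 genes below 0 and the kinase-loading factor CDC37 lowest in p (edgeR adjusted p = 0.318). Of 9 heat shock factors and regulators, 8 were tested and 0 called, with a median of -0.048 and 5 genes below 0. In that list HSF2BP, which binds heat shock factor 2, had the smallest p (edgeR adjusted p = 0.229), at 2.25 ± 0.511 CPM in the TYMP libraries and 3.78 ± 0.215 CPM in the NC libraries (SD, n = 2 each).

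Of the kinases that phosphorylate HSPB1 and the autophagy partners of BAG3, 9 of 11 genes were tested and 0 called, with a median log2 fold change of -0.040 and 6 genes below 0. The filamin gene FLNA, an actin crosslinker whose protein is a client of BAG3, had the smallest p, with 23595 and 20572 reads in the TYMP libraries, against 30732 and 25220 in the NC libraries. Its groups did not overlap, but the log2 fold change of -0.32 ± 0.10 (SE) missed the threshold (edgeR adjusted p = 0.134). It passed with no filter (adjusted p = 0.00550), without TYMP replicate 1 (0.00462) and without NC replicate 2 (0.000716), in a range up to 0.598 over the same 12 alternatives.

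The genes whose 4 values were most like those of HSPB1 were not chaperones. Among 9954 genes averaging 5 CPM or more, the smallest distances of centred log2 CPM over the 4 libraries, between 0.057 and 0.076, belonged to ARSA, TNFAIP2, ASS1, EPHB3 and CASP1. They encode a lysosomal sulfatase, a protein induced by tumour necrosis factor, the arginine-making enzyme argininosuccinate synthase, an ephrin receptor and an inflammatory caspase. TNFAIP2 had 7472 and 7131 reads in the TYMP libraries, against 4446 and 4287 in the NC libraries, and ASS1 had 7088 and 6727 in the TYMP libraries, against 4237 and 3745 in the NC libraries. Such a likeness over 4 libraries mostly restates the size of the difference between the groups.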

How the data were processed

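RNA was extracted with Trizol and 1.5 µg per sample was made into libraries with a NEBNext Ultra kit, per the labels' protocols. The deposited table holds raw read counts and the authors' FPKM per gene and library, per the file headers. HISAT2, HTSeq 0.13.5 and GRCh38 are named, without roles, in the submitters' processing notes, while the sources used here do not give the annotation release, the strand setting or the handling of ambiguous reads. All 87668 FPKM values above 0 could be rebuilt from the count, the column total and a whole number of bases as gene length (tolerance 0.001 bases). No column was left unmatched.

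The quasi-likelihood test of edgeR 4.0.16 (R 4.3.3) was run on the counts, with group alone in the model, after the filterByExpr filter and TMM scaling, with robust dispersions. It covered 14380 genes, with Benjamini-Hochberg adjusted p under 0.05 as the threshold, and was checked on simulated counts, where false calls made up a larger share than the threshold allows. Standard errors are the log2 fold change divided by the root of F. The members and lists were chosen with earlier results of these data known. In each list the called genes, or else the gene of smallest p, were named by rule, and untested genes could be named as such. Replicates were not duplicates (chi-square per degree of freedom 5.84 for TYMP and 7.39 for NC). Coordinates, exons and transcripts came from GENCODE 29 on GRCh38, and promoters from RefSeq on GRCh38.p14. Alternatives were DESeq2 1.42.0, limma-voom (limma 3.58.1), other scalings and filters, a replicate block, fits that dropped 1 library each, and limma on log2 of FPKM plus 1 or 0.1 where the mean FPKM reached 1.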

Additional observations from a re-analysis of the deposited data

How the results depend on the processing

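The log2 fold change of HSPB1 stayed between 0.68 and 0.87 under all 13 alternatives. All 129 values of the 10 members under alternatives moved by less than the spread between libraries. For the fits that dropped 1 library this outcome was nearly fixed, because dropping 1 of 2 libraries shifts a group mean by less than that spread. HSPB8 ran from -0.026 to 0.68 and still counted as unmoved, so nothing is read from that count. HSPB8 had no value under the filter of 5 CPM in 2 libraries. Signs turned for HSPB8, HSP90AA1 and BAG3 when single libraries were left out.

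The 478 genes called over the whole table (301 higher, 177 lower) became 732 with no filter, 165 on FPKM with a pseudocount of 1 and 170 with a pseudocount of 0.1. Leaving out single libraries gave between 393 and 716. Of the chaperone network genes, 0 were called, against 1 with library totals as the only scaling and 2 with no filter. Without single libraries there were between 1 and 5, among them DNAJA3 in opposite directions without either NC library. In these fits a library left alone is taken to vary as the opposite group does.

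The labels do not say that replicate numbers pair the libraries. Across 10122 genes, the deviations from the group means of TYMP replicate 1 and NC replicate 1 correlated at 0.34. With the replicate number as a block, 2024 of the 14380 tested genes were called, against 478 with group alone. Of the 82 tested network genes 22 were called, 1 higher and 21 lower. They included 8 of the 11 tested TRiC and prefoldin genes and 4 of the 11 mitochondrial ones, all lower. The edgeR adjusted p was 0.000881 for HSPA2, 3.78e-06 for FLNA, 0.00129 for CCT7 and 0.00661 for GRPEL1. The log2 fold change of HSPB1 with the block was 0.77 ± 0.044 (SE).

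With 2 libraries per group, small differences cannot be resolved, and genes with few reads, such as HSPB8 and HSPE1, have wide errors.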

Other observations

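Some genes of the network differed more between libraries of a group than between groups. They were chosen after their values were seen. DNAJA3, a mitochondrial J-domain protein, had 221 and 169 reads in the TYMP libraries, against 42 and 486 in the NC libraries. Its log2 fold change was 2.23 without NC replicate 2 (edgeR adjusted p = 2.03e-12) and -1.31 without NC replicate 1 (edgeR adjusted p = 4.71e-12), and over the 12 alternatives without a replicate block the adjusted p ranged up to 0.995. BAG6, a chaperone of membrane proteins in the cytosol, had 3 and 64 reads in the TYMP libraries, against 82 and 35 in the NC libraries. Its log2 fold change was -4.18 without TYMP replicate 2 (edgeR adjusted p = 2.73e-08), and over 9 such alternatives the adjusted p ranged up to 0.998. GENCODE 29 names both genes on sequences outside the primary assembly as well, which holds for 8 of the 101 network genes and for 0 of the 10 members.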
